A study of Mus musculus with 4 samples.

Results

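The epidermal growth factor (EGF) receptor family was followed through 10 genes, the receptors Egfr, Erbb2 and Erbb3 and the ligands Areg, Ereg, Hbegf, Tgfa, Btc, Epgn and Egf. The genes were taken by symbol from the tables of 4 RNA sequencing libraries, and all 10 were found among the 24421 genes listed. The libraries came from 2 Usp25+/+ mice (animals 139 and 140), wild type for the deubiquitinase gene Usp25, and 2 Usp25-/- mice (animals 826 and 850), which lack it. All 4 are labelled as distal colon of female C57BL/6 mice aged 8 weeks. Every animal is labelled as given 2.5% dextran sulfate sodium (DSS), which injures the colon epithelium, in its water over 5 days, with 2 days of ordinary water afterwards. Both genotypes carry the same treatment label, and no untreated group was used here.

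EGF receptors are tyrosine kinases of the cell surface that pair up when a ligand binds and then signal through the RAS-ERK and PI3K-AKT routes. The ligands are made as membrane-anchored precursors and are released by proteases of the ADAM family. Egfr binds all 7 ligands followed here. Erbb2 binds no known ligand and serves as a partner, and Erbb3 has a weak kinase and binds neuregulins. In epithelia of gut and lung the pathway is known for driving repair after injury.

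The labelled tissue and sex did not match the transcripts. Among 12 colon epithelial markers, 7 stayed under 1 FPKM (mapped fragments per length of transcript and per library total) in every library. The colon mucin gene Muc2 did not exceed 0.193 FPKM, and Cdx1 and Aqp8 were listed at 0 in all 4. Lgals4, Krt20 and Guca2a, which other epithelia also express, reached 70.6, 52.4 and 16.6 FPKM in 826. The 9 alveolar type 2 markers, genes of the surfactant-making cells of the lung, summed to between 1517 and 4989 FPKM. The Y-linked gene Ddx3y lay between 12.7 and 30.3 FPKM, and Xist, the RNA of the inactive X chromosome, did not exceed 0.110 FPKM. Usp25 followed the genotype labels, at 38.5 and 16.6 FPKM in Usp25+/+ and 2.65 and 1.71 FPKM in Usp25-/-. The values below are given by genotype label and make no statement about colon or about DSS.

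Of the 7 ligand genes, 4 lie side by side on mouse chromosome 5. On mm9 they are Epgn (91456490 to 91464241), Ereg (91503643 to 91522675), Areg (91568641 to 91577458) and, on the opposite strand, Btc (91786287 to 91831939), a span of 375.4 kb. RefSeq promoter windows of 300 bases, 250 before and 50 after the start, were read for 7 of the 10 genes, all but Erbb3, Ereg and Hbegf. Those of Areg, Btc and Epgn, the chromosome 5 ligand genes with a window, are shown. Areg and Btc were highest in 826 and Epgn in 139, as given further on. The sequences are RefSeq's from GRCm38.p6, each matched once on mm9, at chr5:91568375-91568674 (plus strand) for Areg, chr5:91831971-91832270 (minus strand) for Btc and chr5:91456293-91456592 (plus strand) for Epgn. Capitals mark matches on either strand to TGACGTCA (a cAMP response element), TGANTCA (an AP-1 element), TATAAA (a core promoter element) and GGGCGG (a GC box).

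Areg: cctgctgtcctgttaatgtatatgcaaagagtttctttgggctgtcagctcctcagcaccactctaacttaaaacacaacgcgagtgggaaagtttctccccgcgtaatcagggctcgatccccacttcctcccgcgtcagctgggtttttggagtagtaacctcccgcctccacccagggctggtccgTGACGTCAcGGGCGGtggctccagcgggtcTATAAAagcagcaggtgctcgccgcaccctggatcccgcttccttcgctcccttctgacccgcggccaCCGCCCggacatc

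Btc: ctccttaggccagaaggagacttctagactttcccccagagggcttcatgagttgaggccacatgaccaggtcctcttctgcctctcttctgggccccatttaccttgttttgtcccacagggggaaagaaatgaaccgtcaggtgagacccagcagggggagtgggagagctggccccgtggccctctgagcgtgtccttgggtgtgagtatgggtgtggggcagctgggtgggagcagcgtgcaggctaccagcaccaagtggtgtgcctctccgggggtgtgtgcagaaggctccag

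Epgn: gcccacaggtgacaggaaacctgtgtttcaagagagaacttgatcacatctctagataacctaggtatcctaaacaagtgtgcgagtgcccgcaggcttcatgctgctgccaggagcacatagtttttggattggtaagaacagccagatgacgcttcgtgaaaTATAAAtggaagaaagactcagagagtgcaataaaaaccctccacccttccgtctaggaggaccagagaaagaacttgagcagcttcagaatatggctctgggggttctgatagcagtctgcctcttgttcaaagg

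The Areg window held 1 TGACGTCA, beginning 61 bases before the start. It also held 1 TATAAA, beginning 31 bases before the start, and 2 GGGCGG. The Epgn window held 1 TATAAA, beginning 86 bases before the start, and the Btc window held none of the 4 motifs. Distances are from the RefSeq starts, which differ from the ends of the GENCODE loci given above. The RefSeq start of Epgn lies inside its GENCODE locus. No marked matches overlapped. Of 32851 RefSeq windows of this length, 1.79% held TGACGTCA, 7.81% TGANTCA, 13.6% TATAAA and 35.7% GGGCGG. TGACGTCA was found in the Areg window alone among the windows of the 7 genes, and the promoters of Ereg, Hbegf and Erbb3 were not examined.

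The receptors were expressed at low levels. Erbb3 had the highest mean of the 3, in Usp25+/+ 139 and 140 at 3.86 and 1.59 FPKM, and in Usp25-/- 826 and 850 at 5.94 and 2.99 FPKM. Its genotypes overlapped, since 139 lay above 850. Erbb2 was listed in Usp25+/+ at 2.25 and 1.97 FPKM, and in Usp25-/- at 4.22 and 3.18 FPKM. Both Usp25-/- libraries lay above both Usp25+/+ libraries, with means of 3.70 ± 0.732 against 2.11 ± 0.195 FPKM (SD, n = 2 each). Egfr, the receptor common to all 7 ligands, was listed in Usp25+/+ at 0.772 and 0.0453 FPKM, and in Usp25-/- at 1.06 and 0.314 FPKM. It was the least abundant of these 3 receptors in every library, and the 2 libraries of a genotype differed more than the genotypes did. Its mean was under the minimum of 1 FPKM set for testing. The depth behind the values is unknown, so levels this low carry no counting interval. Genes above 0 numbered 20556 in 139, 15603 in 140, 17242 in 826 and 15805 in 850.

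Amphiregulin, Areg, a ligand of injured and inflamed epithelium and of some lymphocytes, was the most abundant of the 10 genes. It was listed in Usp25+/+ 139 and 140 at 177 and 205 FPKM, and in Usp25-/- 826 and 850 at 878 and 282 FPKM. Both Usp25-/- libraries lay above both Usp25+/+ libraries, while 826 exceeded 850 by 3.12-fold. Its rank among all 24421 genes was 449 in 139, 364 in 140, 87 in 826 and 250 in 850. The means were 191 ± 19.8 FPKM in Usp25+/+ and 580 ± 422 FPKM in Usp25-/- (SD, n = 2 each), so that the spread within Usp25-/- was larger than the difference of the means.

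Heparin-binding EGF, Hbegf, which also binds Erbb4 and heparan sulfate, was listed in Usp25+/+ at 42.5 and 23.7 FPKM, and in Usp25-/- at 101 and 40.9 FPKM. Epiregulin, Ereg, another ligand of both Egfr and Erbb4, was listed in Usp25+/+ at 54.9 and 20.8 FPKM, and in Usp25-/- at 88.7 and 27.3 FPKM. In both genes 826 was highest, 140 was lowest and the genotypes overlapped, because 139 lay above 850. The ratio of 826 to 850 was 2.47 for Hbegf and 3.25 for Ereg.

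The other ligands were rare. Transforming growth factor alpha, Tgfa, stood in Usp25+/+ at 2.20 and 1.77 FPKM, and in Usp25-/- at 6.56 and 1.85 FPKM. Betacellulin, Btc, stood in Usp25+/+ at 0.935 and 1.70 FPKM, and in Usp25-/- at 9.31 and 1.52 FPKM, with a ratio of 826 to 850 of 6.13. In Tgfa and Btc, 826 stood above the other 3 libraries, among which the genotypes overlapped. Epigen, Epgn, a ligand known from skin and other squamous epithelia, was listed in Usp25+/+ at 3.16 and 0.322 FPKM, and in Usp25-/- at 0.593 and 0.221 FPKM. It was high in 139 and under 1 FPKM elsewhere. Egf itself was listed in Usp25+/+ at 0.163 and 0 FPKM, and in Usp25-/- at 0.135 and 0.112 FPKM.

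**Figure D1:**
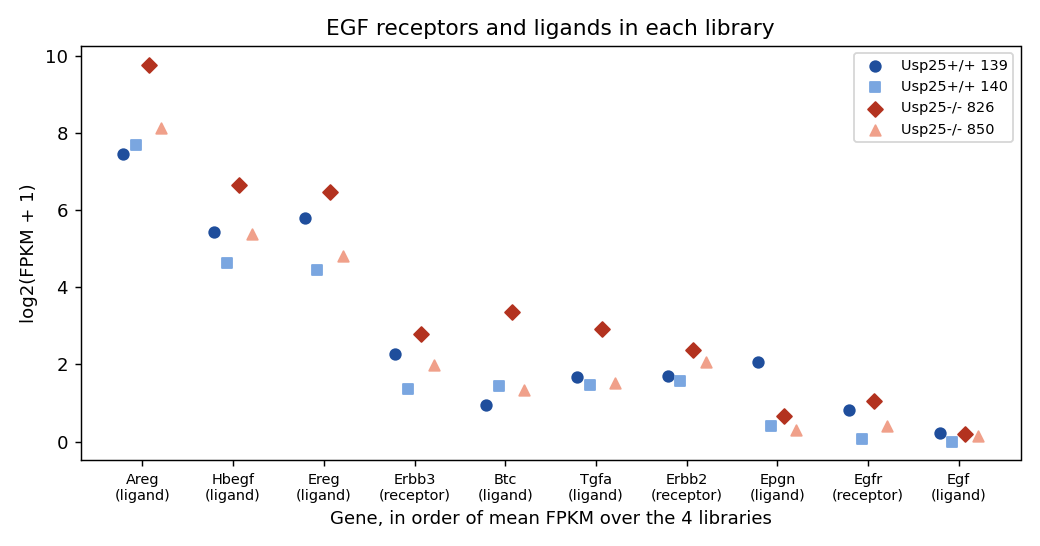
Level of each of the 10 genes in log2(FPKM + 1), with 1 point per library and genes in order of mean FPKM. Areg lies above Hbegf and Ereg in all 4 libraries, and 826 (dark red diamonds) is the highest library in 8 of the 10 genes.

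The order of the levels, read per length in FPKM, was Areg, Hbegf, Ereg, Erbb3, Btc, Tgfa, Erbb2, Epgn, Egfr and Egf by mean over the 4 libraries. Areg lay above Hbegf in 4 of 4 libraries, by 2.74 ± 0.50 log2 units (SD of the difference in log2(FPKM + 1), n = 4). Ereg lay above Erbb3 in 4 of 4, by 3.28 ± 0.40. Egfr lay above Egf in 4 of 4, by 0.44 ± 0.36. Hbegf lay above Ereg in 3 of 4 and Erbb2 above Epgn in 3 of 4, while Erbb3 and Btc, Btc and Tgfa, Tgfa and Erbb2, and Epgn and Egfr crossed within their spread.

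Areg, Ereg and Hbegf together made up 97.7% to 99.0% of the summed FPKM of the 7 ligands. The share of Areg was 63.0% in 139, 80.9% in 140, 81.0% in 826 and 79.7% in 850. The share of Ereg was 19.6% in 139 and between 7.73% and 8.22% in the other 3 libraries, and that of Hbegf 15.2% in 139 and between 9.31% and 11.6% in the others. The mix of ligands in 139 held less Areg and more Ereg than in its genotype partner 140, whose mix lay near that of both Usp25-/- libraries. The ligands summed to 281, 253, 1084 and 354 FPKM in 139, 140, 826 and 850, and the receptors to 6.88, 3.61, 11.2 and 6.49 FPKM. Summed ligands exceeded summed receptors by 40.8-fold to 96.6-fold. Erbb2 and Erbb3 made up most of the receptor sum, and Egfr 1.26% of it in 140 to 11.2% in 139.

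**Figure D2:**
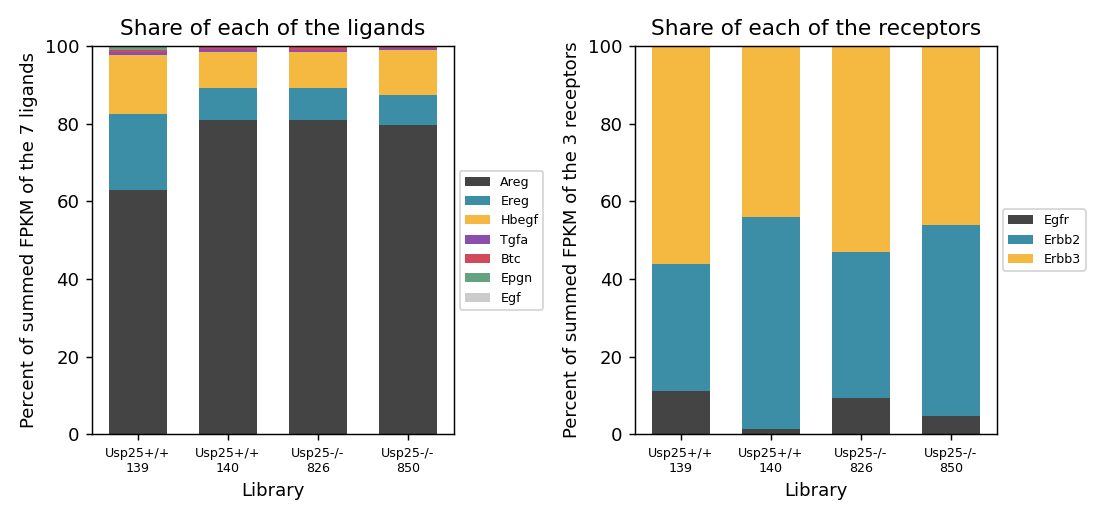
Stacked bars of the percent of summed FPKM that each ligand (left) and each receptor (right) contributed in each library. Areg takes 63.0% of the ligand sum in 139 and 79.7% to 81.0% in the other libraries.

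No member passed the test between the genotypes. Limma on log2(FPKM + 1) was fitted over the 12011 genes that averaged 1 FPKM or more, 8 of the 10 members among them, and Egfr and Egf fell under the minimum. Epgn passed the minimum through animal 139 alone. Called were 0 of the 8 members and 0 of all tested genes (0%) at an adjusted p of 0.05. At an unadjusted p of 0.05, limma gave 0 of the 8 members and 375 of all tested genes (3.12%). Without overlap, 2 of the 8 members, Areg and Erbb2, were higher in Usp25-/-, where 19% of all tested genes were, and 0 were lower, where 14.7% of all tested genes were. A share of 2 in 8 is near that background. With 2 libraries in each genotype, an exact permutation test of 1 gene cannot give a p below 0.333, and a p that misses the threshold does not show that levels were equal.

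Among the receptors, the log2 fold change (Usp25-/- minus Usp25+/+ in log2(FPKM + 1), limma) was 0.59 (SE 0.31; adjusted p = 0.960) for Erbb2 and 0.57 (SE 0.47; adjusted p = 0.960) for Erbb3. Without animal 140 the value of Erbb3 was 0.11, and without 139 it was 1.02. Erbb2 kept its direction and lay between 0.43 and 0.75 whichever library was left out.

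Among the ligands, Areg had the widest difference, at 1.38 (SE 0.61; limma unadjusted p = 0.0697, adjusted p = 0.960). It was 0.56 without animal 826 and 2.20 without animal 850. Btc followed at 1.16 (SE 0.71) and Hbegf at 0.99 (SE 0.55), which became 0.14 and 0.35 without animal 826. Tgfa had 0.64 (SE 0.53), or -0.06 without animal 826. Ereg had 0.53 (SE 0.72), which turned to -0.30 without animal 826 and to -0.15 without animal 140. Epgn was the only tested member with a negative value, -0.75 (SE 0.64), or 0.08 without animal 139. Every one of these 6 ligands had a limma adjusted p of 0.960.

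**Figure D3:**
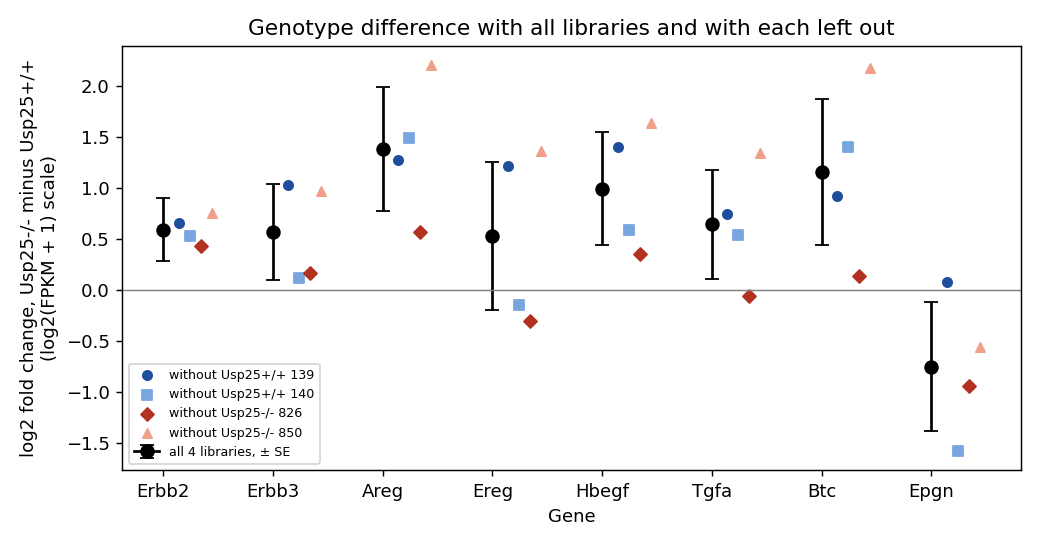
Log2 fold change of the 8 tested genes, Usp25-/- minus Usp25+/+, on the log2(FPKM + 1) scale. Black points are the limma estimates from all 4 libraries with bars of 1 SE, and coloured points are the estimates with 1 library left out. Values without animal 826 (dark red diamonds) lie below the full estimate in all 8 genes, and for Ereg, Tgfa and Epgn below 0.

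Most members shared 1 high library. Animal 826 was the highest library in 7 of the 8 tested members, and in Egfr as well, where it was the highest in 25.4% of all tested genes. Epgn was highest in 139, as were 29.9% of all tested genes. General epithelial markers had the same high library. The 10 markers, among them Epcam and the keratin genes Krt8, Krt18 and Krt19, summed to 971, 848, 3700 and 1406 FPKM in 139, 140, 826 and 850. Of these, 9 were highest in 826, 7 were higher in Usp25-/- without overlap, where 19% of all tested genes were, and their median log2 fold change was 1.31, against 0.03 over all tested genes. In bulk tissue, more cells of a type and more RNA per cell cannot be told apart.

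Set against the summed epithelial markers of the same library, Areg spanned a narrower range. Per 100 FPKM of epithelial markers it stood at 18.2 in 139, 24.2 in 140, 23.7 in 826 and 20.0 in 850, so that the genotypes overlapped on this scale. Erbb2, the other member without overlap in FPKM, stood at 0.231, 0.232, 0.114 and 0.226 in that order, with both Usp25-/- libraries below both Usp25+/+ libraries. Btc stood at 0.0963, 0.200, 0.252 and 0.108. Ereg stood at 5.65 in 139 and between 1.94 and 2.45 in the others, and Hbegf at 4.38 in 139 and between 2.73 and 2.91. On this scale 6 of the 10 members overlapped between the genotypes, and Erbb2, Ereg, Tgfa and Epgn were lower in Usp25-/- without overlap, Ereg only by 2.40 in 826 against 2.45 in 140. Krt8, Krt18 and Krt19 made up most of the summed markers, in 826 at 1067, 1030 and 727 of 3700 FPKM. Among the 10 markers the ratio of 826 to 850 ran from 1.28 for Cldn3 to 4.06 for Cldn4, so the scale depends on the markers chosen. The summed markers that divide each value were higher in both Usp25-/- libraries. On this scale 64.1% of all tested genes were lower in Usp25-/- without overlap, against 0.724% that were higher. The 4 members that were lower are all among the 8 tested members, and 4 in 8 is no more than that background. This ratio was chosen after the values were seen and was given no test.

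The marker lists of other cell types had varied profiles, and some of them also had their highest sum in 826. The 8 neutrophil markers found summed to 45760 FPKM in 139 and to 798, 2065 and 1283 FPKM in 140, 826 and 850, and all 8 were highest in 139, the library in which Epgn was high and Ereg and Hbegf took a larger share. The 9 alveolar type 2 markers summed to 1517, 3862, 4989 and 4642 FPKM, and 3 of the 9 were highest in 826. The 6 gastric surface markers summed to 112, 142, 2783 and 974 FPKM, and all 6 were highest in 826. Of 7 squamous and basal epithelial markers 6 were highest in 139, though only 3 of the 7 averaged enough to be tested. Among all 24421 genes listed, 11914 were counted as highest in 139, including 2635 at 0 in every library. Mast cells and lymphocytes are further known sources of Areg. Of 7 listed markers of mast cells and basophils, 5 stayed under 1 FPKM in every library. These were Tpsb2, listed at 0 throughout, Cpa3, Mcpt4 and the IgE receptor genes Fcer1a and Ms4a2. Kit, which other cell types also express, stood at 5.85, 5.55, 3.98 and 4.92 FPKM, lowest in 826. The basophil protease gene Mcpt8 stood at 41.1, 17.8, 164 and 55.8 FPKM, highest in 826, and made up most of the summed list, at 48.4, 24.1, 168 and 61.9 FPKM. The 6 markers of innate and regulatory lymphocytes summed to 19.4, 7.31, 8.69 and 14.4 FPKM and were highest in 826 in 1 of 6. The part of these cell types in the members' values was not tested.

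**Figure D4:**
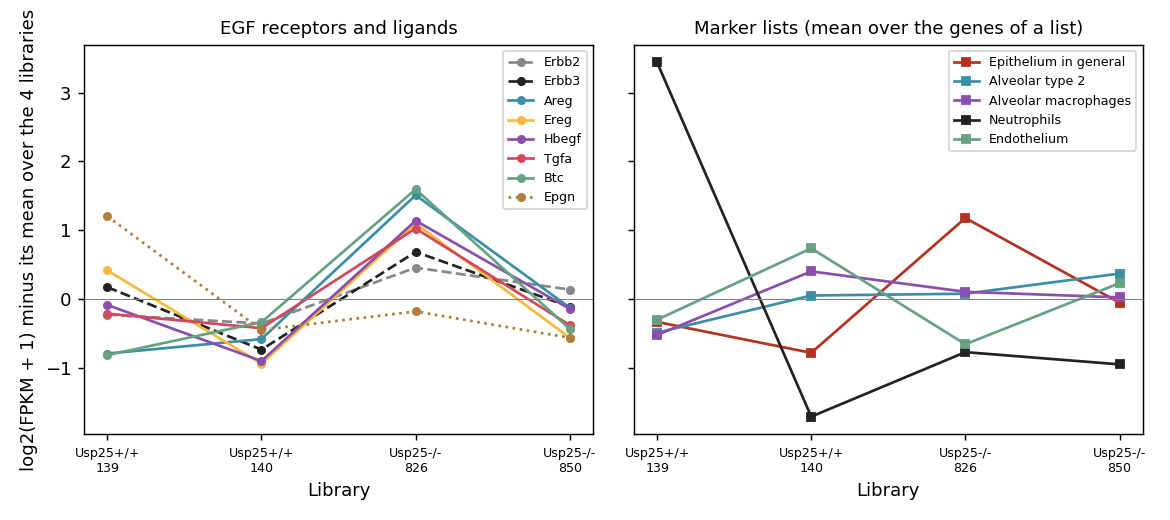
Profiles over the 4 libraries in log2(FPKM + 1), each centred on its own mean, for the 8 tested genes (left) and for the mean of each of 5 marker lists (right). The general epithelial markers and 7 of the 8 genes peak in 826, and Epgn and the neutrophil markers peak in 139. The gastric surface markers, also highest in 826, are not drawn.

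The genes whose centred profile over the 4 libraries was nearest to that of Areg, of 7575 genes compared by Euclidean distance in log2(FPKM + 1), were Gprc5a (0.13), Tmem54 (0.14) and Hs3st1 (0.18). Gprc5a, an orphan receptor gene of lung epithelium, was listed at 99.2, 117, 546 and 156 FPKM in 139, 140, 826 and 850. In all, 32 genes lay within a distance of 0.5. Nearest to Erbb3 were Cxcl17 (0.12), a mucosal chemokine, Ptpn2 (0.16), a tyrosine phosphatase, and Apbb3 (0.18), with 126 genes within 0.5. Nearness over 4 libraries is a description.

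Neighbours on chromosome 5 did not share 1 profile. Areg, Ereg and Btc were highest in 826, while Epgn, at -112.2 kb from the start of Areg, was highest in 139. The profile of Epgn rests on that library, at 3.16 FPKM in 139 against 0.322, 0.593 and 0.221 FPKM in 140, 826 and 850. Of the 9 other protein-coding genes within 300 kb of the 4 ligand genes, several of them CXC chemokines, 5 were highest in 139, 3 in 826 and 1 in 850.

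The remaining receptor and the neuregulins were low. Erbb4 was listed in Usp25+/+ at 0.0822 and 0.0381 FPKM, and both Usp25-/- libraries list it at 0. Nrg4, a ligand of Erbb4, stood in Usp25+/+ at 4.30 and 4.66 FPKM, and in Usp25-/- at 4.68 and 2.63 FPKM (log2 fold change -0.27, SE 0.34). Nrg1, a ligand of Erbb3 and Erbb4, stood at 1.09 and 0.711 against 3.19 and 1.01 FPKM, again with 826 highest (0.62, SE 0.47). Nrg2 was listed above 0 in 139 alone, at 0.276 FPKM, and Nrg3 did not exceed 0.321 FPKM. The 139 library listed the most genes above 0 in general, 20556 against 15603 to 17242 in the others.

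The sheddases and their partners, which release the ligands, showed no common direction. Of 9 listed genes 8 were tested, with 3 positive and 5 negative values, a median log2 fold change of -0.14 and 0 past an unadjusted limma p of 0.05 (adjusted p of at least 0.960). Adam17, the main sheddase of Areg, Ereg, Hbegf and Tgfa, was listed in Usp25+/+ at 54.0 and 22.0 FPKM, and in Usp25-/- at 20.3 and 26.8 FPKM. The 139 library was highest and the genotypes overlapped, and its difference of -0.55 log2 units (SE 0.49) was 0.08 without animal 139. Rhbdf1, an inactive rhomboid that carries ADAM17 to the surface, stood at 4.97 and 7.01 against 13.2 and 8.71 FPKM without overlap (0.76, SE 0.34; limma unadjusted p = 0.0734). Rhbdf2, of the same list, went the other way without overlap, at 33.65 and 30.65 against 27.12 and 22.36 FPKM (-0.37, SE 0.29). Of the 8 tested, 1 was higher and 1 lower in Usp25-/- without overlap, where 19% and 14.7% of all tested genes were. Timp3, an inhibitor of ADAM17, stood at 21.3 and 25.1 against 10.8 and 27.0 FPKM, lowest in 826. Adam9, the most abundant of the list, stood at 54.1 and 43.1 against 47.4 and 38.1 FPKM.

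The adaptors and signal relays lay near the median of all genes. All 21 were tested, with 9 positive and 12 negative values, a median of -0.08 and 0 past an unadjusted limma p of 0.05. The docking adaptor gene Gab1 was listed in Usp25+/+ at 4.02 and 5.00 FPKM, and in Usp25-/- at 6.58 and 7.05 FPKM (0.51, SE 0.28). Its genotypes did not overlap. Of the 21 genes, 5 were higher and 6 lower in Usp25-/- without overlap, where 19% and 14.7% of all tested genes were. Mapk3, which encodes ERK1 and had the highest mean of the list, stood at 65.5 and 193 against 159 and 158 FPKM, lowest in 139, with a log2 fold change of 0.49 (SE 0.57) that turned to -0.29 without 139.

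Negative regulators of the receptors went both ways. Of 15 listed genes 14 were tested, with 5 positive and 9 negative values, a median of -0.13 and 1 gene, Spry2, past an unadjusted limma p of 0.05, as were 3.12% of all tested genes. Errfi1, which binds and blocks the kinase of EGF receptors, was listed in Usp25+/+ at 49.6 and 37.9 FPKM, and in Usp25-/- at 117 and 55.1 FPKM (0.88, SE 0.45; 0.34 without animal 826). Spry2, a feedback inhibitor induced by ERK signalling, stood at 7.34 and 7.19 against 16.1 and 12.4 FPKM (0.87, SE 0.29; limma unadjusted p = 0.0274, adjusted p = 0.960). Its value lay between 0.69 and 1.05 whichever library was left out. The phosphatase gene Ptpn1 stood at 105 and 93.7 against 62.5 and 66.9 FPKM (-0.61, SE 0.29), lower in Usp25-/- without overlap. Of the 14 tested genes, 3 were higher and 2 lower in Usp25-/- without overlap, where 19% and 14.7% of all tested genes were. Ptprj, a receptor phosphatase, stood at 23.2 and 5.22 against 6.42 and 5.32 FPKM (-0.84, SE 0.67), or 0.14 without animal 139.

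Genes known as outputs of ERK signalling had a median of 0.39, against 0.03 over all tested genes. All 14 were tested, with 8 positive and 6 negative values, 6 higher and 2 lower in Usp25-/- without overlap, 8 highest in 826 and 1, Etv4, past an unadjusted limma p of 0.05. Of all tested genes, 19% were higher and 14.7% lower in Usp25-/- without overlap, 25.4% were highest in 826 and 3.12% had such an unadjusted limma p. The 2 lower genes of the list were Egr1 and Fos, both lowest in 826. Egr1 stood in Usp25+/+ at 207 and 137 FPKM, and in Usp25-/- at 88.5 and 133 FPKM (-0.63, SE 0.40). Fos stood at 608 and 629 against 417 and 569 FPKM (-0.34, SE 0.37). Etv4, an ETS factor, was listed in Usp25+/+ at 3.23 and 3.96 FPKM, and in Usp25-/- at 10.1 and 5.72 FPKM (0.91, SE 0.36; limma unadjusted p = 0.0495, adjusted p = 0.960). It was 0.55 without animal 826. Phlda1, a pleckstrin-homology protein gene, stood at 109 and 109 against 255 and 128 FPKM (0.73, SE 0.43; 0.24 without 826). Dusp4, a phosphatase of MAP kinases, stood at 6.05 and 5.50 against 16.4 and 6.01 FPKM (0.70, SE 0.49; 0.05 without 826). Ier3, the most abundant of the list, stood at 836 and 391 against 685 and 381 FPKM (-0.16, SE 0.55). The counts of these lists are descriptions, with no test of a list.

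**Figure D5:**
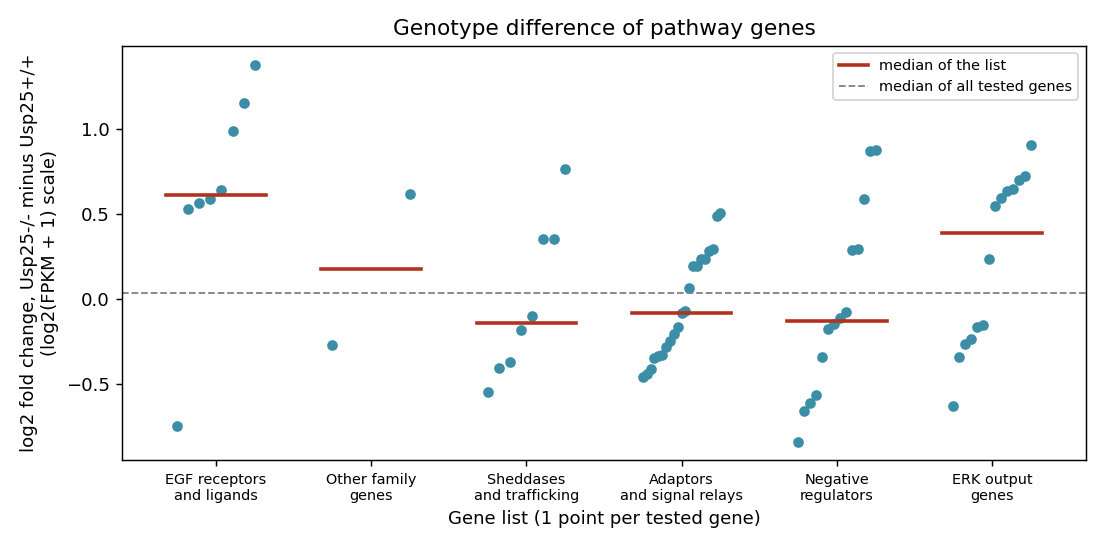
Log2 fold change, Usp25-/- minus Usp25+/+, of each tested gene in 6 lists on the log2(FPKM + 1) scale, with the list medians as red bars and the median of all tested genes, 0.03, as a dashed line. The medians are 0.62 for the receptors and ligands and 0.39 for ERK output genes, and between -0.14 and 0.17 for the other 4 lists.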

How the data were processed

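The deposited values are taken as FPKM because the submitters' processing notes name Cufflinks, with cutadapt, TopHat2 2.1.1 and mm9. The unit stands in no header or label, and neither annotation nor scaling is given in the sources used here. Libraries of poly(A) RNA were made without strand information, per the labels' protocols, so reads of overlapping antisense genes cannot be told apart. Whole reads could not be recovered, and the depth is unknown.

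Members and lists were chosen with earlier results of these data known. The genotype contrast was fitted on log2(FPKM + 1) by limma 3.58.1 under R 4.3.3, as a two-sided moderated test with a mean-variance trend (this scale understates changes of low genes). Testing was limited to genes averaging 1 FPKM or more, and p-values were adjusted over all of these by Benjamini-Hochberg, with calls at 0.05. Each gene had 2 residual degrees of freedom. The labels name separate animals. The fit was tested on simulated data. Named were all members, and from each pathway list the 3 tested genes with the widest difference and the most abundant one. The values of 1 gene so chosen are not reported here. A few marker genes, Rhbdf2, Egr1, Fos and the epithelial ratio were chosen after their values were seen. GENCODE vM1 on NCBIM37 (mm9) gave the loci. Alternatives were other pseudocounts, filters, scalings and variance models, and omission of single libraries, where the lone library of a genotype is assumed to vary like the other genotype.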

Additional observations from a re-analysis of the deposited data

How the results depend on the processing

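No gene was called by limma under any of the 13 alternatives. The count at an unadjusted p of 0.05, 375 genes, was 899 without a filter on low values, 227 with a minimum mean of 5 FPKM, and 108 to 2593 when 1 library was left out. Members higher in Usp25-/- without overlap numbered 2, against 1 with a minimum of 5 FPKM, where Erbb2 was not tested, and 2 to 7 when 1 library was left out. That range follows in part from a genotype with 1 library. Of 25 genes taken by the naming rule and tested, 0 changed sign under another pseudocount, filter, scaling or variance model, and 16 kept their sign whichever library was left out. The 9 that changed sign had these ranges of log2 fold change when 1 library was left out: Ereg -0.30 to 1.36, Tgfa -0.062 to 1.34, Epgn -1.58 to 0.077, Nrg4 -0.60 to 0.053, Adam17 -1.18 to 0.079, Timp3 -1.03 to 0.22, Mapk3 -0.29 to 1.26, Ptprj -1.82 to 0.14 and Ier3 -0.71 to 0.39. The cause of these changes was not tested. Without the filter, Egfr had 0.28 (SE 0.43) and Egf 0.06 (SE 0.09). No scaling moved the median of all genes by over 0.1. No paired analysis was made because the labels used here give no pairing of animals across the genotypes. The unknown depth limits what the values of Egfr, Egf and Erbb4 can show.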
